A study of Mus musculus with 18 samples.

Results

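A set of 10 genes of plasmalogen turnover and lysophospholipid remodelling was followed: Tmem86a, Tmem86b, Pla2g6, Pla2g15, Pla2g4a, Gde1, Lpcat1, Lpcat2, Lpcat3 and Lpcat4. They were taken by gene symbol, and all 10 were present among the 32941 genes of each of the 4 deposited tables. The study measured RNA from mouse brain and neural stem cells while asking how ether lipid synthesis in peroxisomes bears on cortical neurogenesis. Its 18 libraries comprised 6 developmental stages and 6 groups of 2. The stages were wild-type brain at E11, E12, E13, E14, E16 and E18 (embryonic days 11, 12, 13, 14, 16 and 18), with 1 library each here, although the design text speaks of triplicates of cortex or stem cells. Primary neural stem cells were either wild type with a scrambled construct (NSC-Scramble) or PEX7 knockdown (NSC-Pex7sh). Brain overexpressing PLAAT3-PEX11 (PLA1) was set against wild-type brain (Ctrl1), and a further set named for neurons, also labelled brain, held wild type (Neuron-ctrl) and the same overexpression (Neuron-PLA). The labels name neither the PEX11 gene, the promoter of the construct, the age of the perturbed material nor the way the neurons were obtained. Whether the 2 libraries of a group are separate animals or cultures is not labelled. The p-values between groups therefore reflect how far these particular libraries scatter, and that scatter may be technical. For the stages, with 1 library each, the p-values rest on departure from a straight line. Such departure mixes a curved course over the stages with scatter, which cannot be told apart.

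Plasmalogens are glycerophospholipids with a vinyl ether bond at the first carbon of glycerol, and they are abundant in brain membranes. A phospholipase A2 removes the acyl chain at the middle carbon and leaves a lysophospholipid. The lysophospholipid can be given a new chain by an acyltransferase, or it can be broken down further. TMEM86A and TMEM86B are lysoplasmalogenases, which cleave the vinyl ether bond of lysoplasmalogens. PLA2G6 is the calcium-independent phospholipase A2 beta, whose human gene is mutated in infantile neuroaxonal dystrophy, PLA2G15 is the lysosomal phospholipase A2, and PLA2G4A is the calcium-dependent cytosolic enzyme that releases arachidonic acid. GDE1 is a membrane glycerophosphodiesterase that breaks down deacylated phospholipids, including those that carry N-acylethanolamines. LPCAT1, LPCAT2, LPCAT3 and LPCAT4 put an acyl chain back on lysophospholipids: LPCAT1 favours saturated chains, LPCAT2 can also make platelet-activating factor in inflammatory cells, LPCAT3 favours polyunsaturated chains, and LPCAT4 accepts lysophosphatidylethanolamine among other substrates.

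The genes lie on different chromosomes, apart from Tmem86a, Tmem86b and Gde1 on chromosome 7 and Pla2g15 and Lpcat2 on chromosome 8. Promoter windows are shown for the 5 genes that passed a test of overexpression or of its difference between sets, since these are the regulatory regions a reader would compare. The RefSeq windows (GRCm38.p6) hold the 250 bases before each start site, and all 10 genes matched, Pla2g4a with 2 start sites. Each sequence is written 5′ to 3′ on the gene's strand and ends at the RefSeq start site (Pla2g15 and Lpcat2) or, where an exon of a coding gene in GENCODE M21 begins before that site, at the base before the exon (Tmem86a, Gde1 and Pla2g6). Those of Tmem86a (chr7:47050390-47050600, plus strand), Pla2g15 (chr8:106150104-106150353, plus strand) and Lpcat2 (chr8:92855083-92855332, plus strand) are followed by those of Gde1 (chr7:118705779-118705988, minus strand) and Pla2g6 (chr15:79328391-79328621, minus strand). Capitals mark matches, on either strand, to the GC box with the letters GGGCGG, to the box named after its letters CCAAT, and to the TATA box with the letters TATAAA.
Tmem86a: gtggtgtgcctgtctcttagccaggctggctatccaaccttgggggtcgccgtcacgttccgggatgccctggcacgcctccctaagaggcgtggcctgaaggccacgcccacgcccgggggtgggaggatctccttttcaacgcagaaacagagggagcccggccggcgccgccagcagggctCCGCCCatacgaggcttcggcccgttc
Pla2g15: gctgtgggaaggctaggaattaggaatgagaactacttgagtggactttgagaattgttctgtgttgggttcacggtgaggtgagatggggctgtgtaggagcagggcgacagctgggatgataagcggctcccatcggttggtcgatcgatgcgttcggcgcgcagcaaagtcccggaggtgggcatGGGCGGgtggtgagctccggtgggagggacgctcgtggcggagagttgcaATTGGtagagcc
Lpcat2: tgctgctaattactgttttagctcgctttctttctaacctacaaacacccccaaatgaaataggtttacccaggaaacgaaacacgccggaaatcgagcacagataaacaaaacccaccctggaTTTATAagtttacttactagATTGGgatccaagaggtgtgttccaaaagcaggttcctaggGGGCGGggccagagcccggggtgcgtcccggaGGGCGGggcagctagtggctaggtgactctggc
Gde1: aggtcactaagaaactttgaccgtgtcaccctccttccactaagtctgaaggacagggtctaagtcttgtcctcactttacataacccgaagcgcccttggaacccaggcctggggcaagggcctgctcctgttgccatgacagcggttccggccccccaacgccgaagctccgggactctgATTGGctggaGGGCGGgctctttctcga
Pla2g6: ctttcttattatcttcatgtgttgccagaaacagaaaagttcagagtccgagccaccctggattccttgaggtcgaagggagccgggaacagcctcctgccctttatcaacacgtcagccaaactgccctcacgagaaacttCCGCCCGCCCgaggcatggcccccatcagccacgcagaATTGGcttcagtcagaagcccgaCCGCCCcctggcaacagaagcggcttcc
The first capitals of Pla2g6 are a pair of GC boxes that overlap by 2 bases. Over the whole 250-base windows, at the first start site, 8 of the 10 genes held a GC box and 7 held a CCAAT box, against 32.7% and 33.8% of 32851 promoters. Lpcat3 had the most matches, with 5 GC boxes and 3 CCAAT boxes. Pla2g4a, the gene with the lowest levels in these libraries, held neither at either start site. The TATA box was in 1 of the 10 windows, that of Lpcat2, against 12.4% of all promoters, and also in the window of the second Pla2g4a start site. None of the 10 held an E-box (CACGTG, 6.02% of promoters), a cyclic AMP response element (TGACGTCA, 1.55%) or an ATF4 response element (TGATGNAA, 3.45%), which says only that these letters are not in these windows. The window of Lpcat4, which lies wholly within a GENCODE exon of that gene, had 79.6% G and C and 3 GC boxes, against a median of 52.4% G and C over all promoters, and is not printed. A match is a run of letters and is no evidence that a factor binds there.

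The genes spanned a wide range of levels. Values are RPKM (reads per kilobase of exon, scaled to the counted reads of the library), which can be set side by side between genes because they are per length. Gde1 was the most abundant in every group, from 39.8 RPKM in PLA1 library 2 to 83.5 RPKM in Neuron-ctrl library 1, with a median of 53.0 RPKM over the 18 libraries. Lpcat1 followed with a median of 17.0 RPKM, and Lpcat3, Pla2g15, Tmem86a and Pla2g6 had medians between 8.07 and 9.51 RPKM. Those 4 medians lie closer together than each gene's own range over libraries, so their order is not firm. Lpcat4 (median 5.43 RPKM), Tmem86b (3.67 RPKM) and Lpcat2 (0.868 RPKM) were lower and varied widely, with a highest level 24.4, 28.5 and 28.7 times the lowest. Pla2g4a was lowest, with a median of 0.245 RPKM, and reached 1 RPKM in 4 of 18 libraries, all in Ctrl1 and PLA1, while it was listed at 0 in 2 others. The tables may have been normalised separately, so levels set across them are given as description and were not tested.

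The source labels were checked against marker genes, and the libraries behind the values were of moderate depth. Read totals were 41501880 to 54373317 in the stages and 16147911 to 28104927 in the other 12 libraries. Neuron markers summed to 1001 RPKM or more in all stages and overexpression libraries, and radial glia markers to 877 to 1242 RPKM in the stem cells, which also held neuron markers at 882 to 1156 RPKM and oligodendrocyte lineage markers at 218 to 430 RPKM. Endothelial markers, present in stage brain at 27.7 to 55.7 RPKM, summed to only 0.893 to 1.25 RPKM in Ctrl1 and PLA1, although these are labelled brain. They summed to 2.04 to 2.37 RPKM in Neuron-PLA against 22.6 to 22.9 RPKM in Neuron-ctrl. Erythroid markers summed to 4.74 to 9.81 RPKM in Ctrl1 and PLA1, against 253 to 1957 RPKM in the stages. Microglia markers went the other way, at 219 to 527 RPKM in Ctrl1 and PLA1 against 21.45 to 53.25 RPKM in the stages. Plaat3, named in the construct, had 0.413 and 0.431 RPKM in the controls against 31.4 and 29.1 RPKM in PLA1. In the neuron set it had 0.0699 and 0.230 RPKM in Neuron-ctrl against 19.0 and 20.8 RPKM in Neuron-PLA. The PEX11 part of the construct was not checked here. Pex7 was at 1.19 and 1.22 RPKM in NSC-Scramble and at 0.500 and 0.669 RPKM in NSC-Pex7sh, and so matched the labels too.

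Across brain development the question was which of the genes change between E11 and E18. Lpcat4, Gde1 and Pla2g15 rose, and none of the 8 genes tested fell. In the limma fit of a straight line on embryonic day, 45.1% of 12921 genes passed (Benjamini-Hochberg adjusted p under 0.05), 19.6% of the genes tested passing upward and 25.5% downward. The 3 of 8 lies below the share for both directions and above the 19.6% for upward calls, and neither difference was tested. The median slope of the 8 genes was 0.067 per day on the log2(RPKM + 1) scale, against -0.019 over all genes tested. In bulk samples, fewer cells of a type and less RNA per cell cannot be told apart, which holds for every value here.

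The acyltransferase Lpcat4 had the steepest rise. It stood at 5.17, 5.69, 6.34, 7.91, 9.64 and 15.2 RPKM at E11, E12, E13, E14, E16 and E18. Each stage was higher than the stage before, in all 5 steps, and E18 was 2.94 times E11. The slope was 0.20 per day (SE 0.022, adjusted p = 0.000934, limma), and it passed under all 12 alternatives run. Gde1, the glycerophosphodiesterase, stood at 40.8, 43.0, 48.0, 50.0, 53.1 and 79.3 RPKM. It too was higher at each of the 5 steps, with the largest step between E16 and E18, and E18 was 1.94 times E11. Its slope was 0.12 per day (SE 0.024, adjusted p = 0.00617, limma). Without E18 that slope was 0.077 and no longer passed (adjusted p = 0.106). The lysosomal phospholipase Pla2g15 stood at 5.68, 6.21, 6.16, 6.92, 6.75 and 9.77 RPKM. The first 5 stages lay close together and E18 was the high library. The slope of 0.084 (SE 0.024, adjusted p = 0.0243, limma) was lost without E18 (0.044, adjusted p = 0.324) and without E13 (adjusted p = 0.0537).

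Neither lysoplasmalogenase passed. Tmem86a was at 4.83, 5.59, 6.69, 8.29, 8.51 and 7.63 RPKM. It was lowest at E11 and highest at E16, and its slope of 0.086 per day missed the threshold (SE 0.031, adjusted p = 0.0564, limma). That slope passed with median-ratio scaling (adjusted p = 0.0343), with upper-quartile scaling (0.0312), without E14 (0.0470) and without E18 (0.15 per day, adjusted p = 0.0345). Tmem86b was at 11.7, 11.5, 13.0, 11.1, 12.4 and 8.64 RPKM, above Tmem86a at every stage, and E18 was its low library (slope -0.044, adjusted p = 0.228). Tmem86b made up 53.1% to 70.7% of the summed RPKM of the pair over the stages.

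Among the other genes, the phospholipase Pla2g6 was at 8.59, 9.43, 11.7, 11.0, 12.9 and 10.9 RPKM, lowest at E11 and highest at E16, with a slope of 0.049 that did not pass (adjusted p = 0.181, limma). Lpcat1 was at 21.6, 19.6, 16.5, 17.5, 18.7 and 27.6 RPKM, a dip to E13 with E18 highest, which a straight line describes poorly (slope 0.047, adjusted p = 0.319). Lpcat3 stayed between 5.29 and 6.70 RPKM with no order over the stages (slope 0.0090, adjusted p = 0.770). Lpcat2 was at 0.440, 0.661, 0.742, 0.692, 0.915 and 0.820 RPKM and was not tested, since its mean was under 1 RPKM. Pla2g4a, also under that limit, went from 0.287, 0.279, 0.132 and 0.182 RPKM at E11 to E14 to 0.0523 at E16 and 0.0230 RPKM at E18. These rest on 96, 74, 45, 61, 14 and 8 reads. The E18 level had a 95% Poisson interval of 0.00994 to 0.0454 RPKM, which covers counting error only, and lay below the interval at E11 (0.232 to 0.350 RPKM). With no filter on low values its slope was -0.050 (SE 0.0089, adjusted p = 0.0119, limma), where the added 1 RPKM compresses changes of so low a gene.

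**Figure D1:**
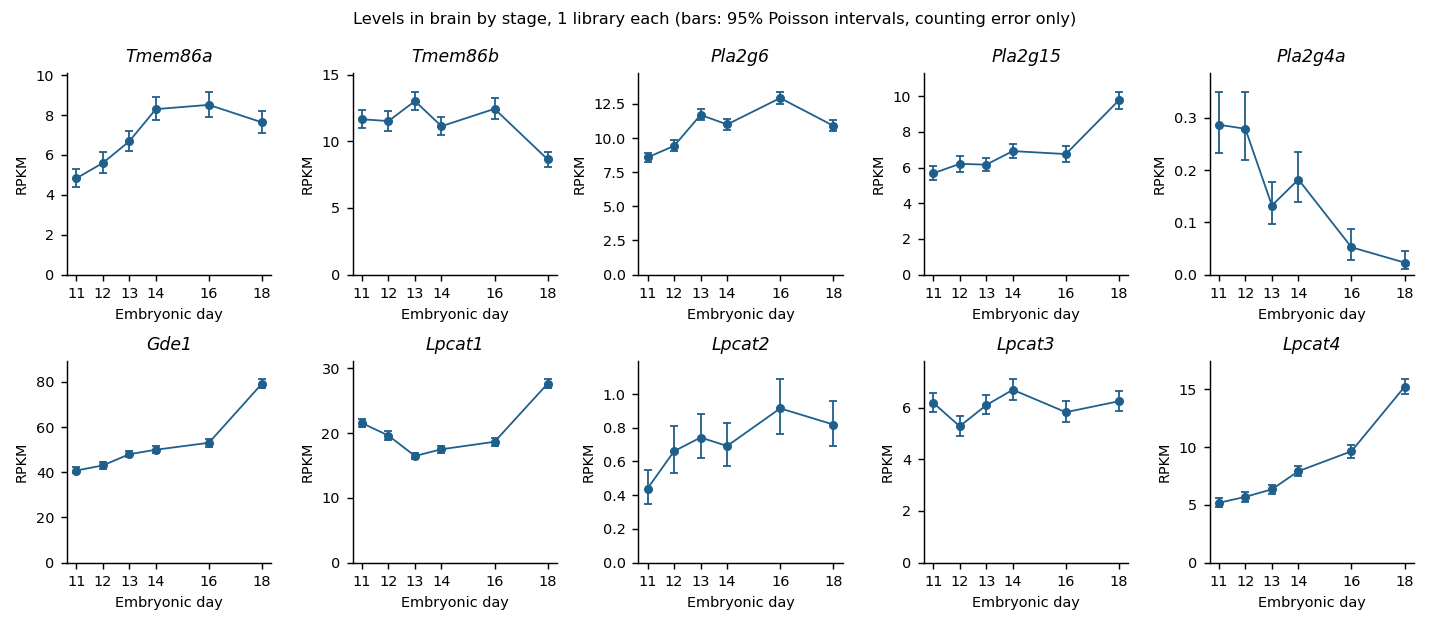
Level of each gene (RPKM, linear axes from 0) against embryonic day in wild-type brain, with 1 library per point and 95% Poisson intervals for counting error only. Lpcat4 and Gde1 go up at each of the 5 steps, to 15.2 and 79.3 RPKM at E18, while Pla2g4a ends at 0.0230 RPKM.

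Cell type markers moved along the same stages. All 8 mitotic markers fell, from a summed 347 RPKM at E11 to 18.5 RPKM at E18, and 6 of 10 neuron markers rose, from a summed 1001 to 3086 RPKM. Of 10 microglia markers tested 9 rose, between a summed 21.4 and 53.2 RPKM. From E16 to E18 astrocyte markers went from a summed 34.4 to 152 RPKM, with 3 of 4 tested rising over the stages and 1 falling. Oligodendrocyte lineage markers went from 19.9 to 74.6 RPKM (2 of 5 rising), and choroid plexus markers from 21.15 to 109 RPKM (0 of 2 rising, 1 falling). All 4 pericyte markers tested rose. Radial glia markers fell in 6 of 10 and rose in 2. The part of these cell types in the slopes of Lpcat4, Gde1 and Pla2g15 was not tested. By the smallest root mean square difference of log2(RPKM + 1), each gene centred on its own mean over the 6 stages, the genes most like Lpcat4 were Snx21 (0.0596), Ptp4a3 (0.0655) and Nrip3 (0.0669). Those most like Gde1 were Abhd12 (0.0361), Hacd1 (0.0450) and Chadl (0.0490). Abhd12, which encodes a lysophosphatidylserine lipase, went from 18.3 RPKM at E11 to 33.6 RPKM at E18. These 6 stages are the only points behind that likeness.

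The first overexpression set compared libraries labelled PLAAT3-PEX11 brain with libraries labelled wild-type brain. Tmem86a, Lpcat2, Pla2g15 and Gde1 fell in PLA1, and none of the 10 genes rose. All 10 were tested, and over all 11623 genes tested 29.6% passed, 16.3% upward and 13.2% downward, in limma. The median log2 change of the 10 genes was -0.16, against 0.057 over all genes tested. Of the passing genes 55.3% were higher in PLA1, a share that became 47.1% with median-ratio and 40.2% with upper-quartile scaling. The 4 falls kept their direction under both scalings.

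Tmem86a, a lysoplasmalogenase gene, had the largest change of the 10 on the log2(RPKM + 1) scale. The Ctrl1 libraries stood at 40.5 and 39.7 RPKM, the PLA1 libraries at 20.8 and 17.9 RPKM. Both PLA1 libraries lay well below both controls, and the mean went from 40.1 ± 0.536 to 19.4 ± 2.07 RPKM (SD, n = 2 each), 0.483 of the control level. The log2 change was -1.02 (SE 0.10, 95% confidence interval -1.25 to -0.79, adjusted p = 0.000769, limma), with an adjusted p of at most 0.0228 over the 11 alternatives. Tmem86b, the other lysoplasmalogenase, stood at 1.89 and 0.620 RPKM in the controls and 1.13 and 2.73 RPKM in PLA1. The groups overlapped, and its change of 0.38 did not pass (adjusted p = 0.436) and turned to -0.034 without Ctrl1 library 2 and -0.022 without PLA1 library 2. Tmem86a thus made up 95.5% to 98.5% of the pair's summed RPKM in Ctrl1 and 86.8% to 94.9% in PLA1.

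Of the phospholipases, Pla2g15 had 21.4 and 17.3 RPKM in the controls against 11.1 and 13.9 RPKM in PLA1, without overlap. Its log2 change was -0.59 (SE 0.14, adjusted p = 0.0223, limma). That call was lost without Ctrl1 library 1 (-0.44, adjusted p = 0.127), without PLA1 library 1 (-0.44, adjusted p = 0.0811) and with no filter on low values (adjusted p = 0.120). Pla2g6 had 6.53 and 6.36 RPKM in the controls against 7.21 and 6.69 RPKM in PLA1, slightly higher without overlap (0.094, SE 0.12, adjusted p = 0.580). Pla2g4a had its highest levels of the series here, with 1.24 and 1.17 RPKM in the controls and 1.18 and 1.03 RPKM in PLA1, and the groups overlapped (-0.066, adjusted p = 0.808). Gde1, the phosphodiesterase, had 59.2 and 53.8 RPKM in the controls against 40.6 and 39.8 RPKM in PLA1. Both PLA1 libraries were low, and the log2 change was -0.48 (SE 0.083, adjusted p = 0.00623, limma), with an adjusted p of 0.0505 without Ctrl1 library 1.

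The 4 acyltransferases did not move together. Lpcat2 had 9.40 and 10.4 RPKM in the controls against 5.37 and 6.04 RPKM in PLA1, a mean of 0.575 of the control level with no overlap. Its log2 change of -0.70 (SE 0.12, adjusted p = 0.00698, limma) passed under all 11 alternatives run. Lpcat3 was also lower without overlap, at 11.5 and 11.9 RPKM against 10.2 and 9.09 RPKM, but did not pass (-0.26, SE 0.11, adjusted p = 0.119). Lpcat1 had 8.75 and 8.61 RPKM in the controls against 8.06 and 10.9 RPKM in PLA1, values that overlapped (0.10, adjusted p = 0.630) and turned to -0.095 without PLA1 library 2. Lpcat4 was low in this set, with 0.779 and 0.623 RPKM in the controls and 1.23 and 2.07 RPKM in PLA1, on 45, 37, 56 and 105 reads. Both PLA1 libraries were higher, 2.35 times the control mean, while the change on the log2(RPKM + 1) scale was 0.62 (SE 0.22, adjusted p = 0.0715). It passed in limma-voom on recovered reads (1.20, adjusted p = 0.0345) and without PLA1 library 1 (0.85, adjusted p = 0.0350).

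Microglia markers were lower in PLA1 too, beside Lpcat2, Tmem86a, Pla2g15 and Gde1. The 12 markers summed to 527 and 487 RPKM in the controls, against 219 and 230 RPKM in PLA1. Of 11 tested 10 fell (median -1.08), and none of the 12 was at 0 in both libraries of either group. In the neural stem cells, where the same markers summed to only 2.65 to 6.90 RPKM, Lpcat2 was at 0.364 to 0.806 RPKM. In the stages they summed to 21.4 to 53.2 RPKM, with Lpcat2 at 0.440 to 0.915 RPKM. Tmem86a, like Lpcat2, was highest in Ctrl1. It lay at 4.22 to 5.88 RPKM in the stem cells and at 4.83 to 8.51 RPKM in the stages. The part of microglia in the Lpcat2 result was not tested. Other cell types moved too: 8 of 10 neuron markers fell (a summed 2018 to 2055 RPKM against 1111 to 1192 RPKM). All 8 mitotic markers rose (235 to 239 RPKM against 398.9 to 399.6 RPKM). Radial glia markers rose in 6 of 10 and fell in 1 (301 to 318 RPKM against 366 to 368 RPKM). Astrocyte markers summed to 210 to 212 RPKM in Ctrl1 against 80.1 to 85.2 RPKM in PLA1, with 1 of 3 tested falling and 1 rising. The part of these cell types, microglia among them, in the falls of Tmem86a, Pla2g15 and Gde1 was not tested either.

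**Figure D2:**
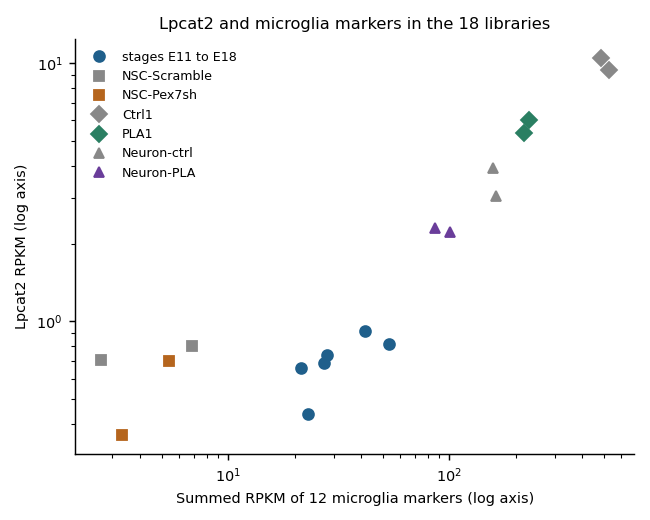
Level of Lpcat2 (RPKM) against the summed RPKM of 12 microglia markers in the 18 libraries, both on log axes, with marker shape for the sample set. Ctrl1 lies highest on both, with 9.40 and 10.4 RPKM of Lpcat2, PLA1 next, then the neuron set, and the stem cells and stages stay under 1 RPKM of Lpcat2.

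In the neuron set, which made the same comparison in libraries named for neurons, 0 of the 8 genes tested passed, where 0.877% of 11179 genes did so in limma (0.376% upward and 0.501% downward, 98 genes in all, and 1976 at an unadjusted p under 0.05). Groups did not overlap for 5 of the 10 genes, Tmem86b and Pla2g6 being higher and Tmem86a, Lpcat2 and Gde1 lower, against 50.0% of all genes tested (24.7% higher and 25.3% lower). In the first set the same held for 7 of 10 genes, against 69.3% of all genes tested (39.6% higher and 29.7% lower), with Pla2g6 and Lpcat4 higher and Tmem86a, Pla2g15, Lpcat2, Lpcat3 and Gde1 lower. In the neuron set all 5 were among the 8 genes tested, which is the count to set beside the 50.0%. In the first set the 7 of 10 lies close to its background. Neither count was tested against its background.

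Pla2g6 came nearest to passing. It was at 4.83 and 4.64 RPKM in Neuron-ctrl and at 8.91 and 8.85 RPKM in Neuron-PLA, 1.87 times the control mean. The libraries of each pair lay close together (4.74 ± 0.134 and 8.88 ± 0.0399 RPKM, SD, n = 2 each). The log2 change was 0.78 (SE 0.14, 95% confidence interval 0.46 to 1.11, adjusted p = 0.0534, limma). It passed when the mean had to reach 5 RPKM (adjusted p = 0.0316) and in limma-voom on recovered reads (0.91, adjusted p = 0.0148). Its adjusted p ranged up to 0.247 over the 11 alternatives.

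The lysoplasmalogenase Tmem86b was at 1.21 and 0.456 RPKM in Neuron-ctrl and at 3.25 and 2.08 RPKM in Neuron-PLA, from 52, 19, 131 and 112 reads. Both Neuron-PLA libraries were higher, 3.19 times the control mean, and the log2 change of 1.01 (SE 0.29, adjusted p = 0.141, limma) did not pass. Tmem86a was at 29.5 and 36.4 RPKM in Neuron-ctrl and 28.7 and 25.2 RPKM in Neuron-PLA. These groups lay next to each other without overlap, and the change was -0.28 (SE 0.13, adjusted p = 0.318). Gde1 reached its highest levels of the series here, at 83.5 and 81.1 RPKM in Neuron-ctrl and 79.0 and 76.5 RPKM in Neuron-PLA (-0.082, SE 0.075, adjusted p = 0.615). Pla2g15 was at 12.8 and 7.09 RPKM in Neuron-ctrl and at 13.6 and 12.5 RPKM in Neuron-PLA (0.41, SE 0.23, adjusted p = 0.413). Its control pair was spread widely, and the higher control library lay between the 2 Neuron-PLA libraries.

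Of the acyltransferases, Lpcat2 was at 3.92 and 3.06 RPKM in Neuron-ctrl and at 2.22 and 2.30 RPKM in Neuron-PLA. Both were lower without overlap, but the change of -0.45 (SE 0.19, adjusted p = 0.272, limma) did not pass. Microglia markers were again lower beside it, at a summed 158 to 162 RPKM against 86.0 to 100.5 RPKM, with 2 of 11 tested falling (median -0.51). Interneuron markers fell in 4 of 5 tested (92.2 to 94.6 RPKM against 49.6 to 49.8 RPKM), radial glia markers in 2 of 8 (329.5 to 342 RPKM against 174 to 214 RPKM), astrocyte markers in 1 of 4 and pericyte markers in 1 of 2. The part of these cell types in the neuron-set values of the 10 genes was not tested. Lpcat1 was at 11.7 and 10.9 RPKM against 12.7 and 11.3 RPKM (0.078, adjusted p = 0.790), and Lpcat3 at 9.90 and 9.13 RPKM against 6.19 and 10.9 RPKM (-0.18, adjusted p = 0.725), both overlapping. Lpcat4 stayed near 1 RPKM, at 1.11 and 0.799 RPKM against 0.708 and 0.983 RPKM, and was not tested. Pla2g4a was nearly absent, at 0.0910 and 0 RPKM against 0.0596 and 0 RPKM, from 13, 0, 8 and 0 reads, where the limit taken for a count of 0, that of 3 reads, is 0.0216 RPKM in Neuron-ctrl library 2 and 0.0167 RPKM in Neuron-PLA library 2.

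**Figure D3:**
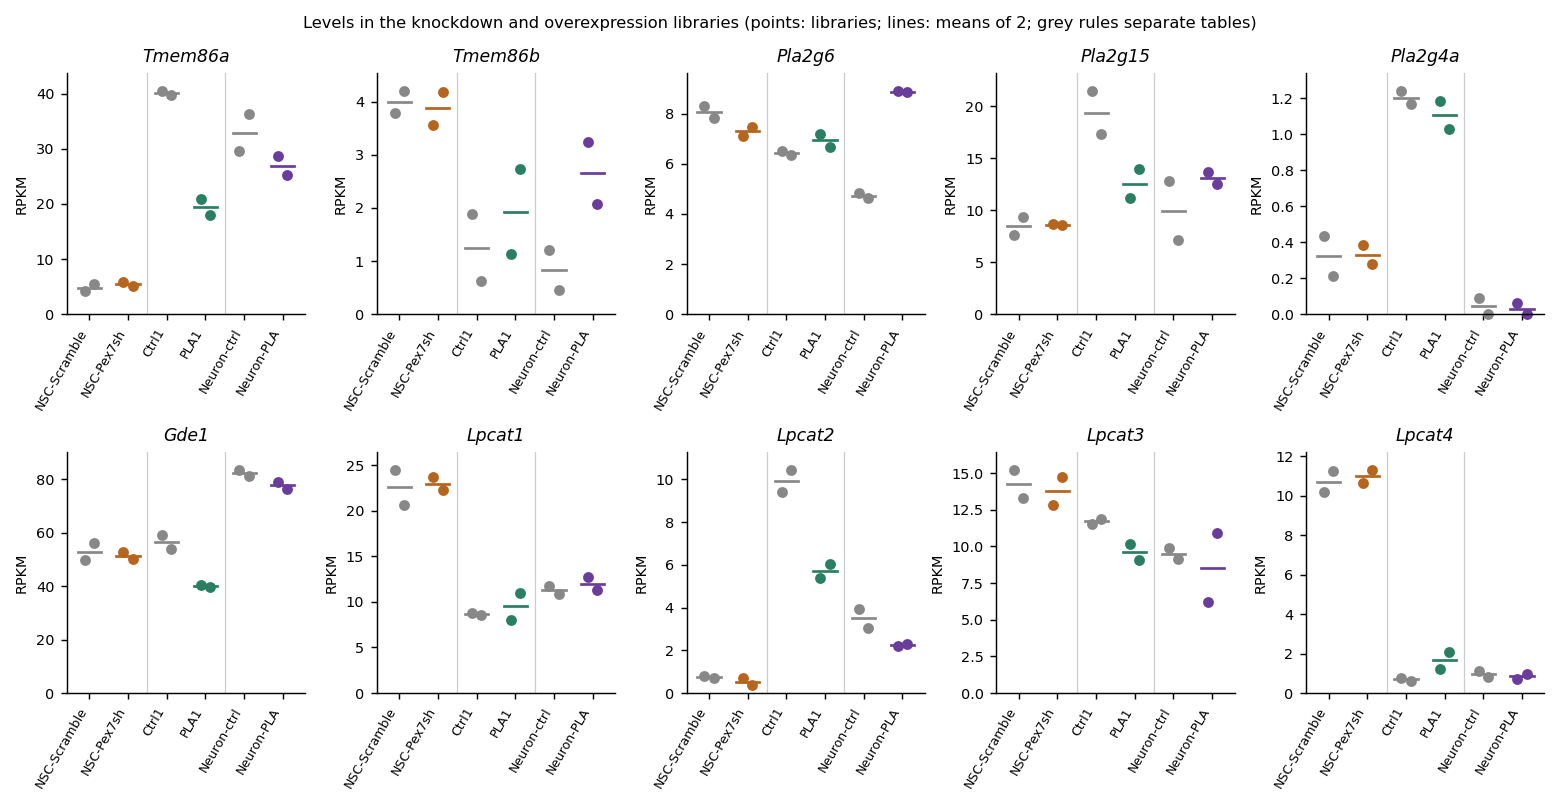
Level of each gene (RPKM, linear axes from 0) in the 12 knockdown and overexpression libraries, with 1 point per library and a line at the mean of 2. Tmem86a has means of 40.1 RPKM in Ctrl1 and 19.4 RPKM in PLA1, and Pla2g6 separates in the neuron set, at 8.91 and 8.85 RPKM in Neuron-PLA.

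Whether overexpression acted differently in the 2 sets was tested directly, as the change in the neuron set minus the change in the first set. Tmem86a, Pla2g6 and Gde1 passed, all with a positive difference, 3 of 9 genes tested against 11.7% of 11705 genes in limma (5.48% positive, 6.19% negative). For Tmem86a the difference was 0.74 (SE 0.17, adjusted p = 0.0227), with a change of -1.02 in the first set and -0.28 in the neuron set. For Pla2g6 it was 0.69 (SE 0.17, adjusted p = 0.0290), from 0.094 and 0.78. For Gde1 it was 0.40 (SE 0.11, adjusted p = 0.0430), from -0.48 and -0.082. The remaining 6 did not pass: Pla2g15 (1.00, SE 0.32, adjusted p = 0.0733), Tmem86b (0.63), Lpcat2 (0.25), Lpcat3 (0.075), Lpcat1 (-0.025) and Lpcat4 (-0.70). The sets differ in their table as well as in their name, and these cannot be told apart. Marker lists differed between the sets in the same test, neuron markers with 7 of 10 passing upward, and mitotic and radial glia markers with 6 of 8 and 6 of 10 passing downward. Their part in the differences of Tmem86a, Pla2g6 and Gde1 was not tested.

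The calls of these differences were often lost when a library was left out, whichever it was for Gde1, while the values kept their direction. Each such fit also has fewer libraries. The Tmem86a difference was lost (adjusted p 0.0650 to 0.0863) without either Ctrl1 library, without PLA1 library 2 and without the first library of either neuron group, and with no filter on low values (0.0938). That of Pla2g6 was lost (0.0543 to 0.123) without each library except PLA1 library 1. That of Gde1 was lost without each of the 8 libraries (0.0612 to 0.183), with no filter (0.0686) and in limma-voom (0.0984). Their values stayed positive in all 15 alternatives, with lowest values of 0.59, 0.64 and 0.33. The Pla2g15 difference in turn passed without Neuron-ctrl library 1 (1.38, adjusted p = 0.0112), in limma-voom (0.0418), with the 5 RPKM minimum (0.0455) and with the replicate block (0.0497).

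**Figure D4:**
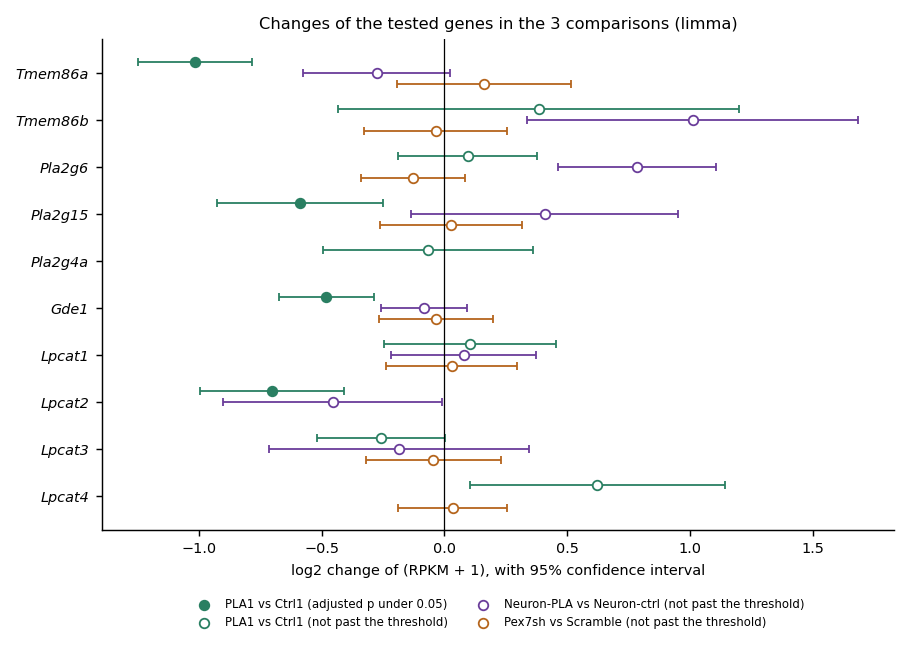
Log2 change of (RPKM + 1) with its 95% confidence interval for each gene tested in the 3 comparisons, filled where the adjusted p was under 0.05 in limma. Filled points are those of Tmem86a (-1.02), Lpcat2 (-0.70), Pla2g15 (-0.59) and Gde1 (-0.48) in PLA1, and none in the neuron set or the knockdown.

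In neural stem cells with Pex7 lowered, 0 of the 8 genes tested passed, as did 0 of 12482 genes (0.0%) in limma, with 184 genes at an unadjusted p under 0.05. Pex7 itself was not tested, since its mean was under 1 RPKM, although it stood at 0.487 of the control mean without overlap. With no filter on low values 0 of 21873 genes passed in limma, so this fall of Pex7 was not called either. In limma-voom 0 genes passed as well, with 116 at an unadjusted p under 0.05. Leaving out NSC-Scramble library 1 or 2 gave 2324 or 2599 genes at an unadjusted p under 0.05, still with 0 passing. The NSC-Scramble libraries lay further apart than the NSC-Pex7sh libraries, with summed mitotic markers of 103 and 191 RPKM against 133 and 151 RPKM, and summed oligodendrocyte lineage markers of 218 and 430 RPKM against 323 and 324 RPKM. Tmem86a was at 4.22 and 5.40 RPKM in NSC-Scramble and 5.88 and 5.05 RPKM in NSC-Pex7sh, with a change of 0.16 (95% confidence interval -0.19 to 0.51). Tmem86b was at 3.79 and 4.20 RPKM against 3.56 and 4.19 RPKM (-0.036, interval -0.33 to 0.26). Both pairs overlapped. Pla2g6 was the only tested gene whose groups did not overlap, at 8.32 and 7.83 RPKM against 7.11 and 7.49 RPKM (-0.13, interval -0.34 to 0.084). Of all genes tested, 22.5% did not overlap, 10.6% higher and 11.9% lower. Lpcat2, not tested, was at 0.806 and 0.707 RPKM against 0.705 and 0.364 RPKM, also without overlap, from 47, 44, 43 and 23 reads.

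The other genes lay within their spread. Gde1 was at 49.7 and 56.1 RPKM against 53.0 and 50.0 RPKM (-0.036, interval -0.27 to 0.20), and Pla2g15 at 7.60 and 9.34 RPKM against 8.70 and 8.52 RPKM (0.027, interval -0.26 to 0.32). Lpcat1 was at 24.5 and 20.7 RPKM against 23.7 and 22.3 RPKM (0.029, interval -0.24 to 0.29). Lpcat3 was at 15.2 and 13.3 RPKM against 12.8 and 14.8 RPKM (-0.046, interval -0.32 to 0.23), and Lpcat4 at 10.2 and 11.2 RPKM against 10.6 and 11.3 RPKM (0.034, interval -0.19 to 0.26). Each of these pairs overlapped, and all 8 intervals lay between -0.34 and 0.51. Pla2g4a was at 0.436 and 0.213 RPKM against 0.382 and 0.277 RPKM, from 25 to 48 reads, and was not tested.

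The make-up of the LPCAT family by summed RPKM differed between sample sets. Lpcat1 held 53.2% to 64.6% over the stages and 45.0% to 49.5% in the stem cells, but 27.3% to 28.7% in Ctrl1. Lpcat2 held 1.32% to 2.61% over the stages and 0.747% to 1.59% in the stem cells. In Ctrl1 it held 30.9% to 33.1%, in PLA1 21.5% to 21.6%, in Neuron-ctrl 12.8% to 14.7% and in Neuron-PLA 9.01% to 10.2%. Lpcat4 held 15.5% to 30.5% over the stages and 20.1% to 24.4% in the stem cells, but no more than 7.37% in any overexpression or control library of the other 2 sets. Lpcat3 ranged from 12.5% in the stages to 42.7% in Neuron-PLA. These shares were not tested, and the shares of a library depend on each other. The sample sets differ in their table as well as in their material, and these cannot be told apart. The balance of the lysoplasmalogenases differed likewise, Tmem86a making up 29.3% to 46.9% of the pair over the stages, 52.7% to 62.3% in the stem cells and at least 86.8% in the other 2 sets.

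**Figure D5:**
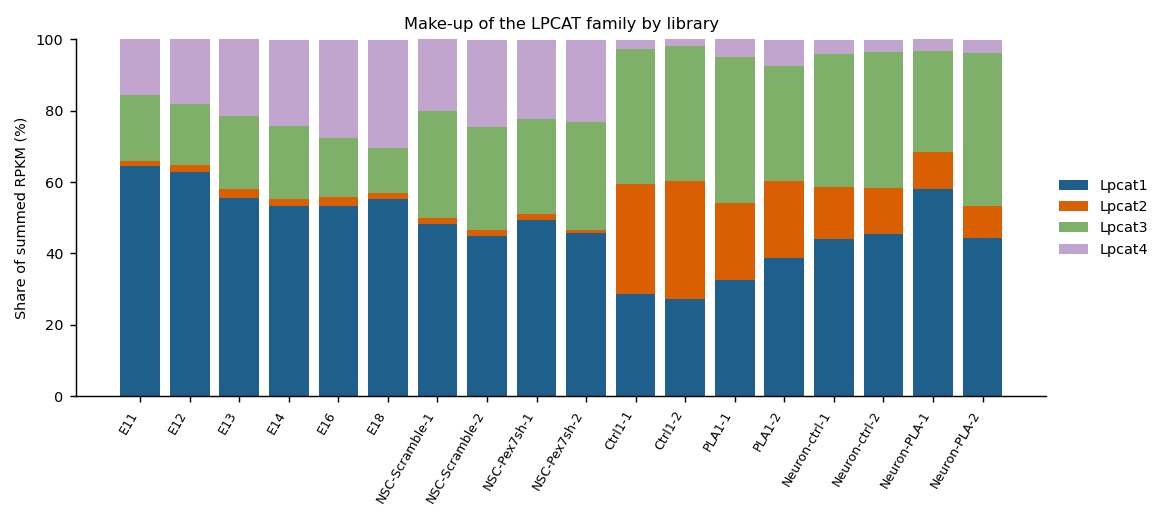
Share of each LPCAT gene in the summed RPKM of the 4 genes (%, stacked bars from 0) in each of the 18 libraries. Lpcat2 reaches 30.9% to 33.1% in Ctrl1 but at most 2.61% in the stages.

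Other genes of the same pathways were read from 4 lists chosen by function, whose counts are to be read against all genes tested, of which 29.6% passed in PLA1 (16.3% upward, 13.2% downward) and 45.1% over the stages. Of 8 other lysophospholipid acyltransferases tested, 3 rose over the stages and none fell: Mboat7, which acts on lysophosphatidylinositol (slope 0.17 per day, adjusted p = 0.00205, limma), Agpat3 (0.12) and Agpat4 (0.11). In PLA1 1 of 8 fell, Agpat4, from 23.0 to 23.5 RPKM in Ctrl1 to 17.1 to 18.2 RPKM (-0.38, adjusted p = 0.0212). Its difference between sets was positive (0.49, adjusted p = 0.0303). Of the other phospholipases A and lysophospholipases, 13 were tested in PLA1, of which 4 fell and 1 rose, the rise being Plaat3 itself. Those that fell included Pla2g7, the platelet-activating factor acetylhydrolase (17.9 to 18.5 RPKM against 10.4 to 11.2 RPKM, -0.70, adjusted p = 0.00293), Abhd16a (-0.42, adjusted p = 0.0125) and Pnpla7 (-0.68, adjusted p = 0.0312), and the fourth was Pafah1b3 (-0.37, adjusted p = 0.0396), named after its values were seen. The difference between sets was positive for Abhd16a (0.66, adjusted p = 0.00985) and negative for Abhd4 (-0.78, adjusted p = 0.0139), a lysophospholipase that acts on N-acylated lysophospholipids.

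Several of these calls were lost without a single library or under another setting. In PLA1 Agpat4 was lost without Ctrl1 library 1 (adjusted p = 0.141, limma), Ctrl1 library 2 (0.0877) or PLA1 library 2 (0.0694). Pnpla7 was lost without the same libraries (0.224, 0.0761 and 0.0967), and Abhd16a without Ctrl1 library 2 (0.0880). Between sets Agpat4 was lost without each library except PLA1 library 1 (0.0514 to 0.124), Abhd16a without Ctrl1 library 2 (0.0528) and Abhd4 without Ctrl1 library 1 (0.0502) or 2 (0.0607). The slopes of Agpat3 and Agpat4 were lost without E18 (adjusted p = 0.114 and 0.15). With no filter on low values Agpat4 (0.0559) and Pnpla7 (0.123) were lost in PLA1 and Abhd4 (0.0508) between sets, where Agpat4 was also lost in limma-voom (0.0665).

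Among the other glycerophosphodiesterases and lysophospholipases D, 2 of 4 tested fell in PLA1 and 1 rose. Gdpd1, a lysophospholipase D, went from 156 to 165 RPKM in Ctrl1 to 112 to 114 RPKM in PLA1 (-0.50, adjusted p = 0.00267, limma), and Gdpd5 changed by -0.52 (adjusted p = 0.0232). Napepld, which releases N-acylethanolamines, rose by 0.54 (adjusted p = 0.0213). Like Gde1, Gdpd1 had a positive difference between sets (0.59, adjusted p = 0.00320). Over the stages Napepld went from 8.46 RPKM at E11 to 0.646 RPKM at E18 (slope -0.35, adjusted p = 0.000653), the opposite direction to Gde1, while Gdpd5 rose (0.11 per day, adjusted p = 0.00950). Of the arachidonate enzymes and lysolipid receptors, 11 were tested in PLA1. The lysophosphatidic acid receptor gene Lpar1 rose (0.47, adjusted p = 0.0149) and the cyclooxygenase gene Ptgs1 fell (-0.94, adjusted p = 0.0238). Over the stages 4 of 7 fell, Lpar1 (-0.27 per day), Ptges3 (-0.16), Lpar6 (-0.16) and Lta4h (-0.10), and 1 rose, Ptges2 (0.085, named after its values were seen). Of the phospholipase list 4 of 14 rose over the stages, Pla2g4e (0.30), Pafah2 (0.17), Pnpla6 (0.12) and Abhd12 (0.12), and 2 fell, Lypla1 (-0.17) and Pafah1b2 (-0.065). Pafah2 and Pafah1b2 were named after their values were seen. Of these calls in PLA1, Gdpd5 was lost without either Ctrl1 library (adjusted p = 0.155 and 0.0743, limma) or PLA1 library 1 (0.0582), and Napepld without Ctrl1 library 1 (0.129) or PLA1 library 1 (0.0723). Lpar1 was lost without Ctrl1 library 1 (0.0696) and Ptgs1 without PLA1 library 1 (0.0696). With no filter on low values Gdpd5 (0.0820), Napepld (0.0978), Lpar1 (0.0899) and Ptgs1 (0.112) were lost in PLA1, and Lpar1 was also lost with upper-quartile scaling (0.0514). The slopes of Lpar1, Lpar6, Abhd12 and Pnpla6 were lost without E18 (0.0906, 0.0951, 0.0818 and 0.107). In the neuron set Plaat3 was the only gene of the 4 lists to pass, and in the knockdown none did. With no filter on low values the Plaat3 call in the neuron set was lost (4.19, adjusted p = 0.0987, limma), although its mean was 133 times that of the control.

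Reads of 4 genes could be shared with a neighbour on the opposite strand, since the sources used here do not say whether counting used strand. The exon bases shared in GENCODE M21 made up 8.61% of Tmem86b (with Gm44877), 8.47% of Lpcat2 (with Gm45472), 10.2% of Lpcat3 (with Emg1) and 13.5% of Gde1 (with Gm45236). Reads from these stretches cannot be told apart. Tmem86a, Pla2g6, Pla2g15, Pla2g4a, Lpcat1 and Lpcat4 shared no exon bases with another gene. In mm10, Tmem86a lies at chr7:47050601-47054777 on the plus strand and Gde1 at chr7:118688545-118705778 on the minus strand, with Pla2g6 at chr15:79286228-79328390 on the minus strand and Lpcat4 at chr2:112239468-112247111 on the plus strand.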

How the data were processed

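RNA-seq of 18 mouse libraries was deposited as 4 tables of 32941 genes. Per the labels' protocols, libraries started from 2 ug of Trizol-extracted RNA. STAR 2.7.9a, HTSeq 0.6.0 and mm10 are named, per the submitters' processing notes, while the annotation and strand setting are not given in the sources used here. The deposited values are RPKM, as inferred from the values, since no header names the unit. Multiplied by the merged exon length in GENCODE M21 (32009 genes) and a read total per library, 97.5% to 97.8% of nonzero values became whole reads within 0.01. All sample columns were used.

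Each treated pair was tested against its control within its table with limma 3.58.1 (trend) in R 4.3.3 on log2(RPKM + 1), keeping genes whose mean reached 1 RPKM, two-sided, with Benjamini-Hochberg adjustment over all genes tested and a threshold of 0.05. The scale understates changes of low genes. The stage test was a slope on embryonic day, and the difference between sets an interaction over 8 libraries. Poisson intervals (95%, counting error only) used scipy 1.17.1 in Python 3.11.15. The fits were tested on simulated data. Alternatives were a pseudocount of 0.1, no filter, a minimum of 5 RPKM, median-ratio and upper-quartile scaling, limma-voom on recovered reads, the replicate number as a block, and leaving out each library.

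The members and lists were chosen with earlier results of these data known. All 10 members, Plaat3 and Pex7 were named, with up to 4 passing genes of smallest adjusted p per list and comparison, and the 3 nearest stage patterns of the 2 members with the widest stage range. Plaat3 was named for its own 2 comparisons and not for the difference between sets, a limit set after its values were seen. Promoters are from RefSeq, trimmed to bases outside coding genes' exons.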

Additional observations from a re-analysis of the deposited data

Results flagged for a closer look

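The change under overexpression differed between the first set and the neuron set, by the interaction test of limma, for 9 of the named genes. Over all 11705 genes tested 11.7% passed (5.48% positive, 6.19% negative), and of the 10 members 3 of 9 tested. Genes outside the members were named because they passed, so the 9 cannot be read as a share. The difference, the log2 change in the neuron set minus that in the first set, was 0.74 for Tmem86a, 0.69 for Pla2g6 and 0.40 for Gde1. It was also positive for Gdpd1 (0.59), Agpat4 (0.49) and Abhd16a (0.66). It was negative for Lpar1 (-0.98), Abhd4 (-0.78) and Ptges3 (-0.56). The Lpar1 difference was lost without Ctrl1 library 1 (adjusted p = 0.0969, limma) or 2 (0.0571), PLA1 library 1 (0.0761) or Neuron-ctrl library 2 (0.0633), and with no filter on low values (0.0958). That of Ptges3 was lost without Ctrl1 library 1 (0.0517) or 2 (0.0821), PLA1 library 2 (0.0555) or Neuron-ctrl library 1 (0.0571). Adjusted p-values with all libraries ranged from 0.00320 for Gdpd1 to 0.0430 for Gde1. Groups of 2 are too small for a test of a library that stands apart.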

How the results depend on the processing

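Counts of passing genes moved with the filter and with the libraries used. With no filter 1177 genes passed in PLA1 (3438 otherwise), 0 in the neuron set (98 otherwise, and 2280 at an unadjusted p under 0.05 with no filter, limma), and 761 between sets (1367 otherwise), where 1 of the members passed in place of 3. With a minimum of 5 RPKM 216 genes and 1 member, Pla2g6, passed in the neuron set, and 3840 in the stage slope (5828 otherwise). In limma-voom 339 genes and 1 member passed in the neuron set, of which 54.9% were higher against 42.9%. Leaving out each library in turn gave 1575 to 3294 genes and 2 to 4 members in PLA1, 7 to 163 genes and 0 members in the neuron set, 636 to 1218 genes and 0 to 2 members between sets, 2537 to 5485 genes and 2 to 4 members in the slope, and 0 genes and members in the knockdown. The lowest counts came without Ctrl1 library 1 (PLA1 and between sets), Neuron-ctrl library 1 and E18. Counts also moved by over 1.5 times without PLA1 library 2 in PLA1 (2048), without Neuron-ctrl library 2 (11), Neuron-PLA library 1 (9) and 2 (163) in the neuron set, and without Ctrl1 library 2 (744), PLA1 library 2 (848) and Neuron-ctrl library 2 (890) between sets. The cause of these moves was not tested, apart from the numbers of genes and libraries that the settings themselves change.

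Signs of member values turned only where no test passed. Between sets Lpcat1 became 0.028 with median-ratio and 0.042 with upper-quartile scaling. With each library left out, knockdown values ranged from -0.11 to 0.16 (Pla2g15), -0.14 to 0.048 (Lpcat3), -0.032 to 0.099 (Lpcat4), -0.13 to 0.057 (Tmem86b), -0.088 to 0.15 (Lpcat1) and -0.12 to 0.050 (Gde1). The ranges were -0.034 to 0.80 (Tmem86b) and -0.095 to 0.30 (Lpcat1) in PLA1, and -0.55 to 0.18 (Lpcat3) in the neuron set. Between sets they were -0.22 to 0.17 (Lpcat1) and -0.29 to 0.44 (Lpcat3), and in the slope -0.0031 to 0.018 (Lpcat3), -0.062 to 0.012 (Tmem86b) and -0.037 to 0.086 (Lpcat1). Of 507 values of the members under alternatives 441 kept their direction and side of the threshold, 30 lost and 12 gained a call, and 24 turned sign.

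The replicate numbers are not said to pair libraries, and deviations of same-numbered libraries correlated at 0.0101, 0.0991 and 0.0468 in the knockdown, first and neuron sets. With the replicate number as a block 1 gene passed in the knockdown, 4297 in PLA1, 54 in the neuron set and 1438 between sets, where 4 members passed. Genes of few reads, above all Pla2g4a and Lpcat2 in stages and stem cells, are limited by depth.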
